A study of Mus musculus with 12 samples.

Results

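The interaction of genotype and stimulation in cultured mouse regulatory T cells (Treg) asks, gene by gene, whether a response to stimulation was weaker, equal or stronger in cells of Kdm2b knockout mice. It was measured as the response in cKO minus the response in WT on the log2(FPKM + 1) scale, where FPKM is a fragment count scaled by transcript length and by the mapped fragments of a library, and a response is the stimulated minus the unstimulated mean. The libraries are 8 of the 12 of the series, in 4 groups of 2, and 10710 of the 24421 genes in the table reached a mean of at least 1 FPKM and were tested. Treg came from spleen and lymph nodes of mice labelled Wild type (WT) or Kdm2b conditional knockout (cKO), were held in vitro, and were either left unstimulated or stimulated. The stimulus, its duration, the Cre driver, the exons removed and the age of the mice are not stated in the sources used here. Replicate numbers 1 and 2 come from the titles, and no label ties them to different mice or cultures, so the tests measure the spread between these libraries, which may be technical.

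Treg, a subset of CD4 T cells that keeps other immune cells in check, are defined by the transcription factor Foxp3. When the T cell receptor and its co-receptors are engaged, a T cell induces transcription factors, cytokines, survival factors and the machinery for nutrient uptake and ribosome production, and shuts down genes of the resting state. Kdm2b is the subunit that brings the Polycomb repressive complex PRC1.1 to unmethylated CG-rich promoters through its CXXC zinc finger, where the complex ubiquitinates histone H2A.

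Each of 6 identity markers (Foxp3, Il2ra, Ctla4, Ikzf2, Cd4 and Cd3e) was expressed in every library, though Cd4 and Cd3e are not particular to Treg. The lowest value was 38.9 FPKM, for Ikzf2 in WT unstimulated library 1. Their summed level was 1046 and 1071 FPKM in unstimulated WT, 1577 and 1781 in stimulated WT, 843 and 851 in unstimulated cKO and 1280 and 1218 in stimulated cKO. Kdm2b itself was at 84.9 and 94.9 FPKM in unstimulated WT, 74.5 and 71.7 in stimulated WT, 89.8 and 97.4 in unstimulated cKO and 66.3 and 70.5 in stimulated cKO. The levels of the genotypes overlapped before stimulation, and after it those of cKO lay slightly below WT. Without knowing which exons were removed, a level over the whole gene checks no label. Several libraries stood apart. The number 2 libraries of WT listed 12379 and 13273 genes at 0, against 9102 to 9857 in the other 6. Haemoglobin genes made up 11.6% and 10.3% of the summed FPKM in the number 1 libraries of cKO and 0.00678% to 1.86% in the others. The summed level of 18 B cell markers was 58.3 to 81.3 FPKM in WT and 233 to 305 in cKO. That of 22 myeloid markers was 593 and 437 in the number 1 libraries of cKO and 182 to 289 in the others. Plasma cell markers summed to 486 in WT stimulated library 1 and 129 to 303 in the others. WT stimulated library 1 also differed from the other 3 WT libraries in genes such as H2-Eb1 and Rps18, both nearer to cKO. H2-Eb1, a class II histocompatibility chain, was at 40.4 FPKM against 1.04 to 1.55. Rps18, a ribosomal protein, was at 1485 against 53.0 to 82.6.

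No gene passed the test of the interaction. With limma and Benjamini-Hochberg adjustment, 0 of 10710 genes (0%) had an adjusted p under 0.05, and the smallest adjusted p was 0.999. At an unadjusted p under 0.05 there were 380 genes, 66 above 0 (0.616% of those tested) and 314 below 0 (2.93%). That is fewer than this threshold would let through with no interaction in any gene, so an unadjusted p given below ranks genes only. The robust form of the test also called 0 genes. A 95% interval shows what the libraries could and could not resolve: it lay wholly inside -1 to 1 on the log2 scale, that is within 2-fold on the FPKM + 1 scale, for 4483 genes (41.9%). The estimate itself was 1 or more away from 0 in 464 genes (4.33%). What follows therefore describes sizes and intervals, and the words weaker and stronger stand for estimates, not for calls.

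Responses were described over 1330 genes whose mean response over both genotypes passed the test, of which 580 were induced (5.42% of those tested) and 750 repressed (7%). This choice weighs the genotypes equally and does not use the interaction. The split depended on scaling, with 756 induced and 540 repressed after median-of-ratios scaling. The response of cKO equalled that of WT within 2-fold, by its interval, in 326 induced (56.2%) and 407 repressed genes (54.3%). Estimates were weaker in cKO by 1 or more in 10 induced and 12 repressed genes, and stronger by 1 or more in 6 and 11. The other 238 and 320 genes had smaller estimates with intervals too wide to place. Just past the bound of 1 were Colq, Cd9 and Fam189b (sizes of 1.00, 1.01 and 1.01), and just short of it Dynlt1f, Mir19a and Gm4070 (-0.96, -0.98 and 0.98, where a minus sign is a weaker response).

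Across induced genes the responses were close in size, with a median of 0.90 in WT and 0.85 in cKO. Their median difference, signed so that a negative value is a weaker response in cKO, was -0.01 (middle 50% from -0.25 to 0.17), and 301 of 580 were below 0. Repressed genes had a median response of -0.67 in WT and -0.81 in cKO, with a median signed difference of 0.12 (middle 50% from -0.10 to 0.37), and repression was the larger in cKO for 482 of 750. Over all tested genes the median of the unsigned difference was -0.08, on the same side as deeper repression in cKO, and after median-of-ratios scaling that median was 0.01 and the median of the repressed genes 0.03. The median response of all tested genes in cKO was -0.14 as deposited and -0.02 after that scaling. Leaving out 1 library changed the number of responsive genes, from 453 without cKO unstimulated library 2 to 2260 without WT stimulated library 1, and the latter set held 373 genes weaker by 1 or more. The genes with an interval inside 2-fold, 733 in all (55.1%), numbered 822 (36.4%) in that set and 236 (37%), 224 (49.4%), 223 (44.2%) and 185 (38.8%) without cKO unstimulated library 1 or 2 or cKO stimulated library 1 or 2, where fewer genes were responsive. Those stronger by 1 or more, 17 in all, ranged from 2 without cKO unstimulated library 2 to 29 without cKO unstimulated library 1. With both number 1 libraries of cKO left out, 11.7% of 128 responsive genes lay inside.

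**Figure D1:**
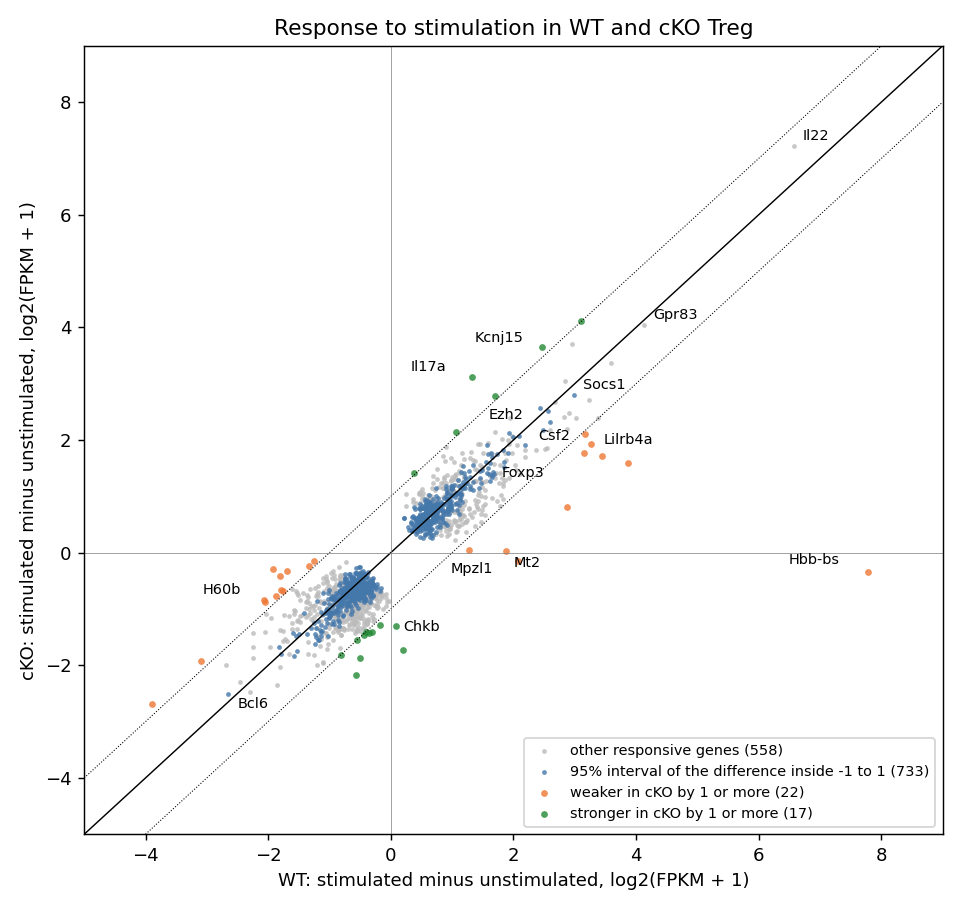
Response to stimulation of 1330 responsive genes in WT (horizontal axis) and cKO (vertical axis), both as log2(FPKM + 1) differences. The solid line is equality, the dotted lines lie 1 above and below it, and points are coloured by class: 733 have an interval inside the dotted lines, 22 are weaker and 17 stronger by 1 or more.

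The share of intervals inside 2-fold depends on how wide the intervals are as well as on the agreement of the estimates, so it is no measure of agreement alone. Among responsive genes with a mean of 1 to 5 FPKM, 6.45% of 124 lay inside, with a median half-width of 1.05, against 69.4% of 615 genes at 20 to 100 FPKM, with 0.59. The median signed difference was -0.13 at 1 to 5 FPKM, 0.01 at 5 to 20, 0.08 at 20 to 100 and 0.13 at 100 or more. By size of response, 64.8% of 932 genes with a mean response under 1, 33.8% of 352 genes between 1 and 2, and 21.7% of 46 genes at 2 or more lay inside. Of the 46 largest, 8 were weaker by 1 or more and 4 stronger, with a median half-width of 1.19. Of the 932 under 1, 5 were weaker and 8 stronger, with 0.63. When the genotypes were tested apart, 191 genes were called in both, 69 in WT alone and 299 in cKO alone. Of the 299, 290 had the same sign in WT and 19 differed between genotypes by 1 or more, and of the 69, 67 had the same sign and 14 differed by as much. A call in 1 genotype alone is thus no measure of a difference between them, and the interaction test called none of these genes.

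Of the 6 Treg identity markers, Foxp3 and Il2ra were induced, each with an interval of the difference inside 2-fold, Cd3e was repressed (-0.51 in WT, -0.90 in cKO), and Ctla4, Ikzf2 and Cd4 did not pass the test. Foxp3 was at 194 and 189 FPKM in unstimulated WT, 529 and 696 in stimulated WT, 71.5 and 82.6 in unstimulated cKO and 238 and 268 in stimulated cKO. Its level was lower in both cKO groups than in the matching WT group without overlap, while its response was 1.66 in WT and 1.70 in cKO, a difference of 0.04 ± 0.24 (SE) with an interval of -0.51 to 0.59. Il2ra, the high-affinity chain of the interleukin-2 receptor, went from 81.9 and 101 to 278 and 382 FPKM in WT and from 113 and 103 to 408 and 364 in cKO. Both responses of Il2ra were 1.83, and the interval of the difference was -0.62 to 0.61. Socs1, an inhibitor of Jak-STAT signalling, went from 23.1 and 22.8 to 204 and 174 FPKM in WT and from 18.6 and 24.0 to 159 and 146 in cKO. Its response was the largest among the induced genes with an interval inside 2-fold, at 2.98 and 2.79, with a difference of -0.19 ± 0.23 (SE).

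Bcl2, Ezh2 and Bcl6 were also in this class. Bcl2, which blocks mitochondrial apoptosis, went from 4.38 and 4.71 to 34.4 and 30.9 FPKM in WT and from 9.89 and 10.2 to 52.5 and 55.6 in cKO, so its cKO levels lay above WT in both states while the responses were 2.60 and 2.32 (interval of the difference -0.78 to 0.22). Ezh2, the catalytic subunit of PRC2, went from 17.4 and 15.1 to 102 and 90.1 FPKM in WT and from 16.9 and 15.2 to 68.6 and 83.8 in cKO, with an interval of -0.85 to 0.22. Bcl6, a transcriptional repressor of the follicular lineage, fell in both genotypes, from 40.5 and 35.3 to 4.57 and 5.85 FPKM in WT and from 33.0 and 38.8 to 5.44 and 5.55 in cKO. The 2 genotypes overlapped at every state of Bcl6, and the responses were -2.65 and -2.50 with an interval of -0.46 to 0.76. The lymphotoxin gene Lta (2.43 in WT, 2.58 in cKO), the importin gene Kpna1 (2.56 and 2.51), the fatty acid elongase Elovl6 (2.09 and 2.07) and Ecm1 (2.19 and 1.91) completed the 8 largest responses with an interval inside 2-fold.

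**Figure D2:**
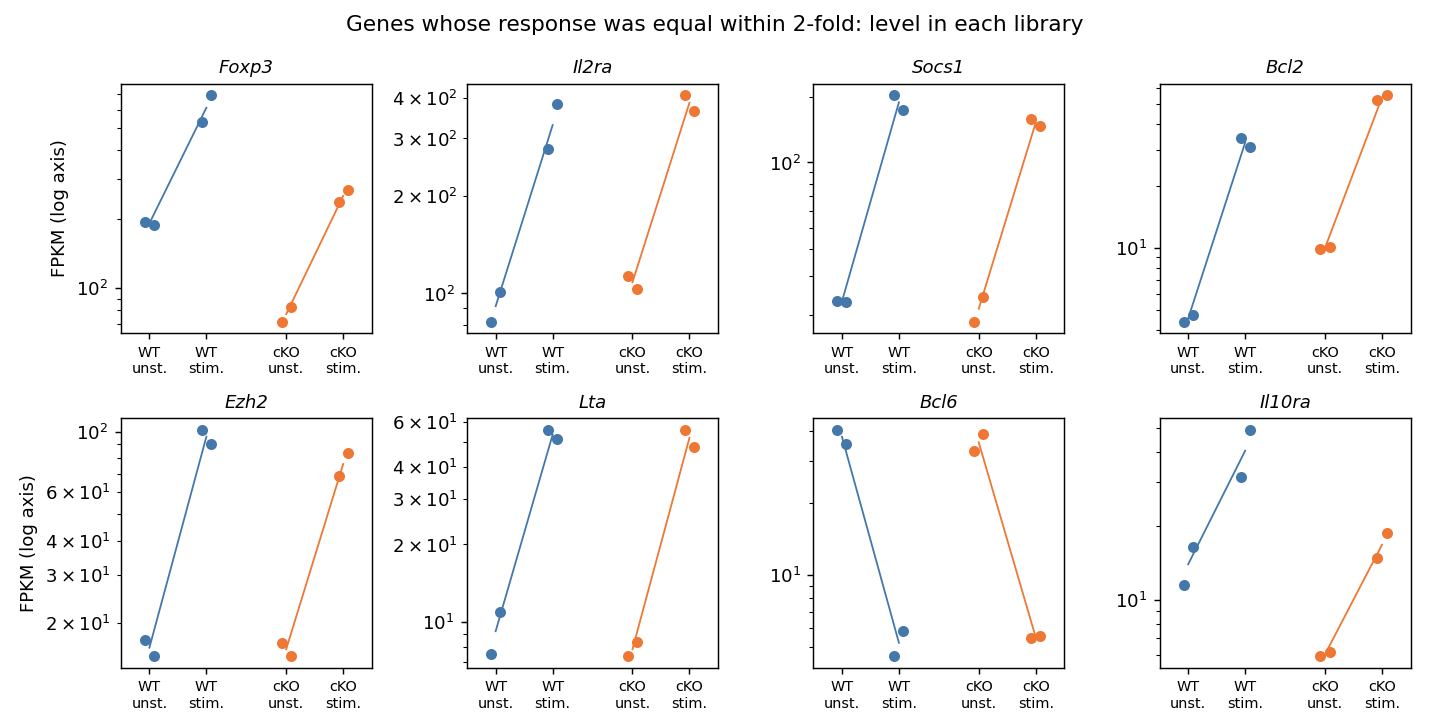
FPKM (log axis) of 8 genes in each library, unstimulated (unst.) and stimulated (stim.), WT in blue and cKO in orange, with lines joining the group means. The lines of a gene run nearly parallel, as for Foxp3 with a response of 1.66 in WT and 1.70 in cKO, and Bcl6 with -2.65 and -2.50.

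Mt2, which encodes a metallothionein, a small protein that binds zinc and copper, had the weaker response with the smallest p among named protein-coding genes. It was at 3.05 and 3.45 FPKM in unstimulated WT, 12.4 and 17.2 in stimulated WT, 9.92 and 16.4 in unstimulated cKO and 13.8 and 12.6 in stimulated cKO. Unstimulated cKO thus overlapped with both stimulated groups, and only unstimulated WT stood apart. The response was 1.88 in WT and 0.04 in cKO, a difference of -1.84 ± 0.38 (SE) with an interval of -2.71 to -0.97 (limma, unadjusted p = 0.0013, adjusted p = 0.999). The difference ran from -2.24 to -1.50 over the 22 alternative settings. Its neighbour in function Mt1 was at 7.51 and 1.57, then 20.9 and 10.7 FPKM in WT and at 21.4 and 23.9, then 23.5 and 25.2 in cKO, with a difference of -1.67 ± 0.73 (SE), and its mean response did not pass the test. The 2 genes are similar in sequence and could share reads. Their summed level was 10.6 and 5.02 FPKM in unstimulated WT, 33.3 and 27.9 in stimulated WT, and 31.3 to 40.3 in the 4 cKO libraries.

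Csf2, the gene of the cytokine GM-CSF, was induced in both genotypes, with the smaller estimate in cKO. It was at 1.15 and 1.64 FPKM in unstimulated WT, 22.05 and 18.7 in stimulated WT, 2.24 and 1.86 in unstimulated cKO and 12.7 and 11.5 in stimulated cKO. The genotypes did not overlap in either state, with cKO the higher before stimulation and the lower after it. The response was 3.16 in WT and 2.11 in cKO, a difference of -1.05 ± 0.32 (SE) with an interval of -1.79 to -0.32 (limma, unadjusted p = 0.0108). Over the alternative settings it ran from -1.31 to -0.77.

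The promoters of Mt2, Csf2 and Socs1 are shown because they stand for an estimate near 0 in cKO, a reduced one and an equal one, and because Kdm2b binds CG. The windows run from 250 bases before to 50 after the annotated start, 300 bases in all, from RefSeq on GRCm38.p6, and capitals mark CG dinucleotides. No binding or chromatin data entered this comparison.
Mt2 (chr8:94172368-94172667, plus strand): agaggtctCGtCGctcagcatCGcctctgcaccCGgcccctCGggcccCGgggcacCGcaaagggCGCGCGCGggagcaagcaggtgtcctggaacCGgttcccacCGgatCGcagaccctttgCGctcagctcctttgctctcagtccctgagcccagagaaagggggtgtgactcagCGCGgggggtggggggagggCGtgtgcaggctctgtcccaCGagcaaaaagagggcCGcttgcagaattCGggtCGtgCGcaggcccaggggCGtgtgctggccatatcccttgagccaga
Csf2 (chr11:54249850-54250149, minus strand): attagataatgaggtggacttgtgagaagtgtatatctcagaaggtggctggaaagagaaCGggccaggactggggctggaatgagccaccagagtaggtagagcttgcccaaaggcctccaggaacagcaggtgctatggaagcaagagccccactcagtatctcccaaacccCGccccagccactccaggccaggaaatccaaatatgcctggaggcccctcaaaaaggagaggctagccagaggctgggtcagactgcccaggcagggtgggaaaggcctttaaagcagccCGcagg
Socs1 (chr16:10785487-10785786, minus strand): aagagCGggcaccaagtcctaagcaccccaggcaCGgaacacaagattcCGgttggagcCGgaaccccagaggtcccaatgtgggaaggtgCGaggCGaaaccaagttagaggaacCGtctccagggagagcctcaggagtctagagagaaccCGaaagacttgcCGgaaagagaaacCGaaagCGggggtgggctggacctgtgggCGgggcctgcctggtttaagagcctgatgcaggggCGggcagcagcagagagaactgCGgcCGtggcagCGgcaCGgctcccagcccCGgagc
The Mt2 window holds 24 CG, the Csf2 window 3 and the Socs1 window 18, beside a median of 7 over all 32851 windows of the RefSeq table. These windows were picked by the responses of their genes, and whether CG count goes with the response was not tested. The metal response element, searched as TGCACNC or TGCGCNC on both strands, occurred 4 times in the Mt2 window and not in the others. It is found at least once in 25.7% of all windows and 3 or more times in 1.97%. The AP-1 motif TGANTCA, the same on both strands, occurred once in the Mt2 window, and in 7.81% of all windows. Among other genes with equal responses, the windows of Ezh2 and Il2ra hold 31 and 3 CG, and among those with a weaker or stronger one, Mpzl1 and Kcnj15 hold 20 and 2.

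Other induced genes with weaker estimates included several that encode membrane proteins. Mpzl1, a receptor that binds the phosphatase Shp2, went from 7.38 and 5.49 to 17.2 and 16.4 FPKM in WT and stayed between 6.62 and 6.98 in the 4 cKO libraries. The difference was -1.23 ± 0.28 (SE), with an interval of -1.88 to -0.58 (limma, unadjusted p = 0.00253). The inhibitory receptor gene Lilrb4a went from 3.97 and 10.1 to 104 and 48.0 FPKM in WT and from 14.3 and 11.6 to 59.4 and 45.7 in cKO. Its stimulated groups overlapped, its unstimulated groups did not, and the difference of -1.33 ± 0.62 (SE) had an interval that includes 0, from -2.77 to 0.11. Lilr4b, its near-identical neighbour, gave -1.73 ± 0.78 (SE) and could share reads with it. The summed level of both genes was 182 FPKM in WT stimulated library 1 and 73.2 in library 2, against 91.3 and 68.2 in stimulated cKO. The secreted factor gene Metrnl (3.15 in WT, 1.77 in cKO, difference -1.38 ± 0.49 SE) and the membrane protein gene Pdzk1ip1 (2.88 and 0.81, -2.06 ± 0.71 SE) were both listed at 0 in WT unstimulated library 2. The other 3 induced genes of this class were Hbb-bs, a haemoglobin chain listed at 0 in unstimulated WT, Iltifb, a copy of Il22 listed at 0 in both unstimulated groups, and the small nucleolar RNA gene Snord69. Haemoglobin genes were at 0.00678% and 0.335% of the summed FPKM in unstimulated WT and 11.6% and 1.33% in unstimulated cKO, and their part in the value of Hbb-bs was not tested.

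Among repressed genes, H60b, which encodes a ligand of the NKG2D receptor, was at 12.1 and 17.5 FPKM in unstimulated WT, 2.80 and 2.67 in stimulated WT, 5.23 and 4.94 in unstimulated cKO and 1.94 and 2.92 in stimulated cKO. The genotypes stood apart before stimulation and overlapped after it. Its repression was -2.06 in WT and -0.84 in cKO, a difference of 1.22 ± 0.37 (SE) with an interval of 0.36 to 2.08 (limma, unadjusted p = 0.0114). Zfand1, which encodes a zinc finger protein of stress granules, went from 8.81 and 7.599 to 3.16 and 2.17 FPKM in WT and from 7.22 and 7.79 to 6.86 and 5.59 in cKO. Here the unstimulated groups were close and stimulated WT alone was low, with a difference of 1.1 ± 0.33 (SE). The 12 repressed genes with weaker estimates also included the pseudogene Gm15772, which could share reads with the ribosomal protein gene Rpl26. Rpl26 was at 5.18 and 80.9 FPKM in unstimulated WT and 472 to 679 in the other 6 libraries, while the sum of both genes was 996 to 1640 FPKM in all 8.

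**Figure D3:**
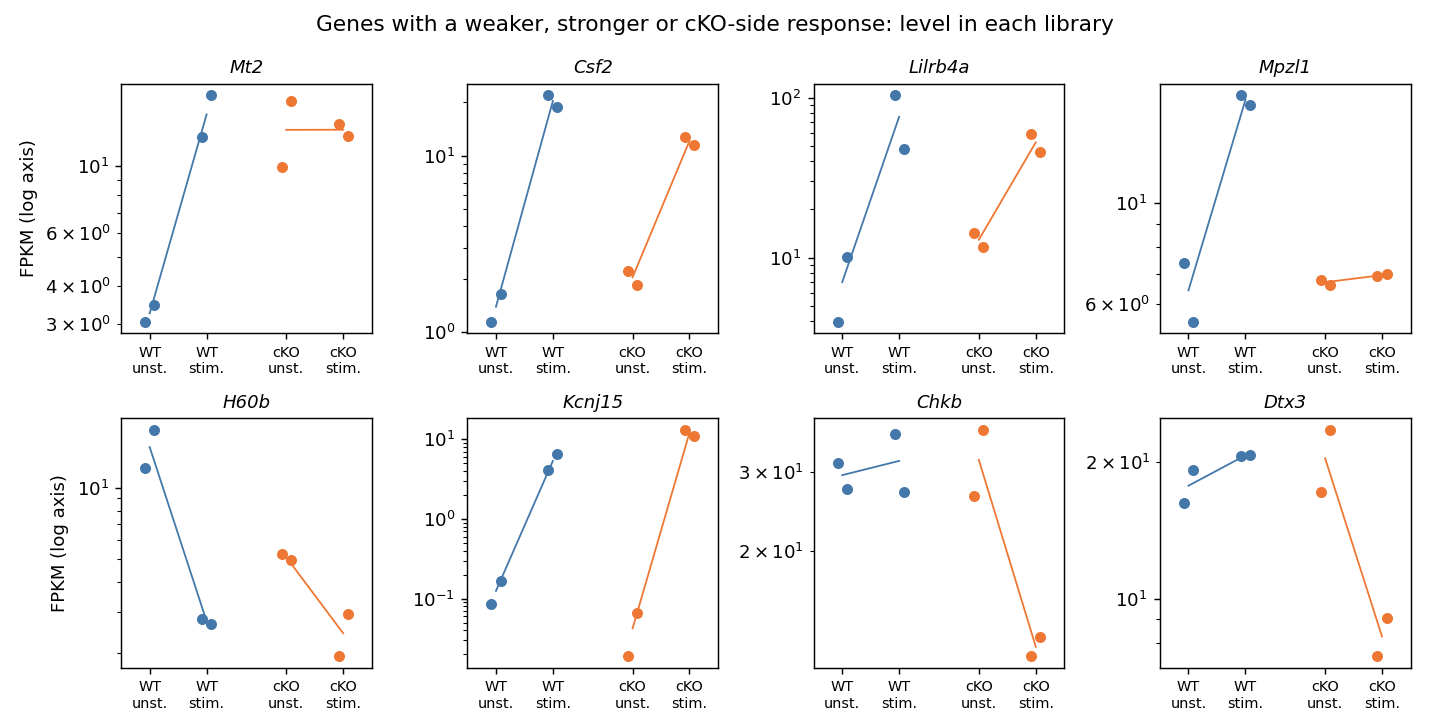
FPKM (log axis) of 8 genes in each library, unstimulated (unst.) and stimulated (stim.), WT in blue and cKO in orange, with lines joining the group means. Mt2 and Mpzl1 climb in WT and stay level in cKO (responses of 0.04 and 0.05), Kcnj15 climbs further in cKO, and Chkb and Dtx3 drop in cKO (-1.29 and -1.20).

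Stronger estimates in cKO were seen for 6 induced genes. Kcnj15, which encodes an inward rectifier potassium channel, was at 0.0853 and 0.164 FPKM in unstimulated WT, 4.07 and 6.62 in stimulated WT, 0.0187 and 0.0654 in unstimulated cKO and 13.2 and 11.01 in stimulated cKO. Stimulated cKO lay above stimulated WT in both libraries, and the responses of 2.47 and 3.65 differed by 1.18 ± 0.43 (SE), with an interval of 0.19 to 2.17 (limma, unadjusted p = 0.0253). Trat1, an adaptor that stabilises the T cell receptor, went from 16.8 and 21.6 to 29.9 and 56.4 FPKM in WT and from 6.92 and 3.70 to 24.6 and 27.4 in cKO, so that the larger response of cKO (2.14 against 1.07) started from a lower level and ended below WT. Il17a, the signature cytokine of Th17 cells, was at 5.78 and 0 FPKM in stimulated WT and 14.5 and 7.10 in stimulated cKO, after 0.292 or less in every unstimulated library. Of the stimulated WT libraries 1 was listed at 0, and the interval of its difference ran from -0.78 to 4.36. The protease inhibitor gene Itih5 (3.11 and 4.12) had a difference of 1.01 ± 0.50 (SE).

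The 11 repressed genes with stronger estimates had WT responses from -0.81 (Colq) to 0.20 (Snord55). Chkb, which encodes choline kinase beta, was at 31.4 and 27.5, then 36.3 and 27.1 FPKM in WT and went from 26.5 and 37.2 to 11.6 and 12.8 in cKO. Only stimulated cKO stood apart, and the difference was -1.38 ± 0.31 (SE) with an interval of -2.09 to -0.68 (limma, unadjusted p = 0.00199). Fam96b, a factor of cytosolic iron-sulfur protein assembly, showed the same order of levels, at 53.8 and 38.4, 41.4 and 38.5, 28.2 and 46.4, and then 16.3 and 12.4 FPKM in stimulated cKO. Rnaset2a, a ribonuclease gene with a close copy, was at 40.1 and 98.1 FPKM in stimulated WT and 25.5 and 26.6 in stimulated cKO, from 75 to 135 in the unstimulated libraries. Id3, an inhibitor of E proteins that marks resting T cells, had responses of -0.43 in WT and -1.46 in cKO, with an interval of -2.19 to 0.13.

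**Figure D4:**
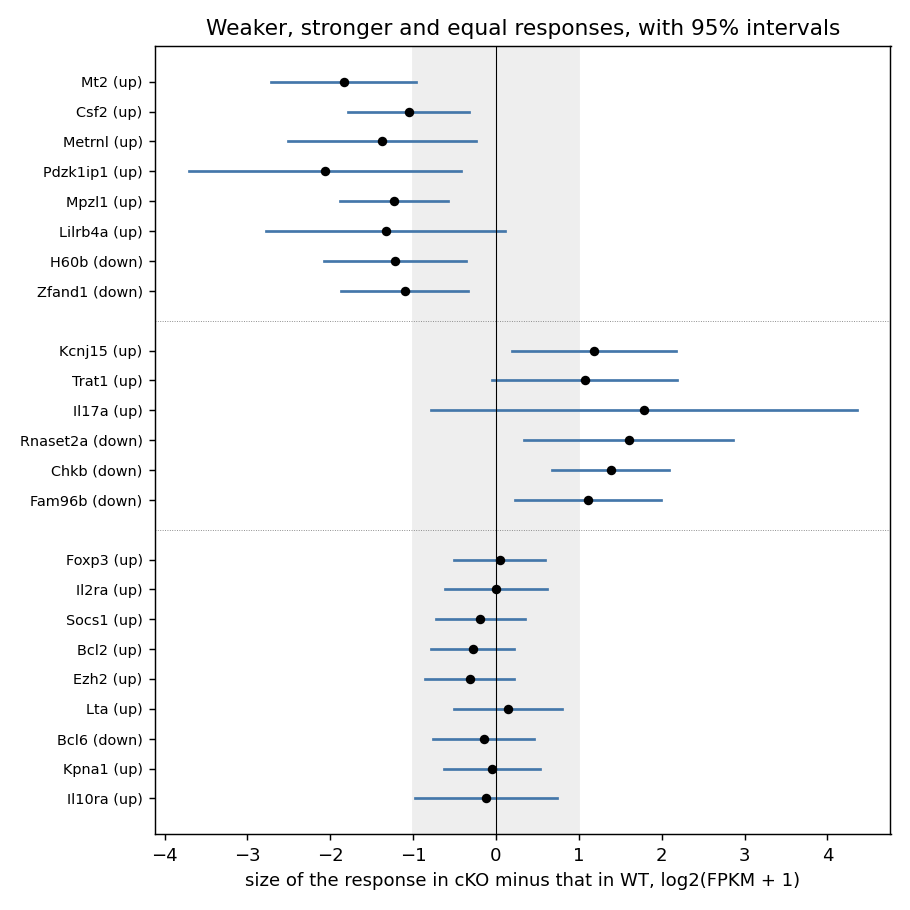
Size of the response in cKO minus that in WT (log2 scale, negative for a weaker response in cKO) with 95% intervals, for genes with weaker (top), stronger (middle) and equal (bottom) responses, each marked up or down by the direction of its response. The shaded band runs from -1 to 1. Mt2 reaches from -2.71 to -0.97, while Foxp3 stays between -0.51 and 0.59.

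Genes with the smallest unadjusted p in the interaction often had responses of opposite sign in WT and cKO. Dtx3, an E3 ubiquitin ligase gene, had the smallest p of all (limma, unadjusted p = 0.00121). It was at 16.3 and 19.2, then 20.7 and 20.7 FPKM in WT and at 17.2 and 23.6, then 7.45 and 9.04 in cKO, so that stimulated cKO alone was low (difference -1.42 ± 0.29 SE). Clk2, a kinase of splicing factors, was at 13.4 and 8.95, then 13.9 and 21.7 FPKM in WT and at 15.3 and 17.1, then 7.64 and 7.30 in cKO (difference -1.64 ± 0.37 SE). Stk19 (0.63 in WT, -0.60 in cKO), Ccdc22 (0.93 and -0.23), Tmem189 (0.32 and -0.70) and the Mediator subunit Med10 (-0.13 and -0.9998) were further genes below 0. In the opposite direction, the adaptor gene Hcst was at 44.4 and 36.2, then 31.1 and 34.2 FPKM in WT and at 24.96 and 29.0, then 43.0 and 37.3 in cKO (difference 0.84 ± 0.24 SE). The sugar transporter gene Slc35b4 (-0.03 and 0.86), the non-muscle myosin gene Myh9 (-0.06 and 0.68) and the proteasome subunit gene Psmd1 (-0.29 and 0.42) were on the same side.

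The excess of genes below 0 moved with some scalings and with base composition. Of the 380 genes at an unadjusted p under 0.05, 82.6% were below 0 as deposited. With median-of-ratios scaling there were 181 below and 151 above 0 (54.5% below), and with each library's trend on transcript GC content removed 192 and 167 (53.5%). Rescaling to a common sum left 296 below and 70 above (80.9%), and removing haemoglobin genes 356 and 63 (85%). Transcripts of the 314 genes below 0 had a median GC content of 53.6%, those of the 66 above 0 47.4%, and all tested genes 49.6%. Across 10662 genes, which are not independent, Spearman's rho between the interaction and GC content was -0.154. No interaction was called under any of these settings.

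Over all tested genes, 5.42% were induced and 7% repressed, and 41.9% had an interval inside 2-fold. Differences of response were below 0 in 6260 of the 10710 and above 0 in 4450. Gene lists are given with the count of members called in the interaction, which was 0 in each of the 24, and with the median difference beside -0.08 for all tested genes. Leaving out 1 library took the median across 0 in 17 of the 24, as for immediate early genes without WT unstimulated library 1 (0.0063) and effector Treg and interferon-stimulated genes without cKO stimulated library 1 (-0.0122 and -0.0356). Another scaling or the GC correction did so in 7. Of 36 tested immediate early and T cell receptor response genes, 8 were induced and 3 repressed, and the median difference was -0.28, with 26 members below 0. Myc went from 20.8 and 36.2 to 124 and 107 FPKM in WT and from 25.4 and 42.8 to 92.2 and 108 in cKO, with responses of 2.03 and 1.57. Irf4, needed for effector Treg, had responses of 1.74 and 1.75 with an interval inside 2-fold (-0.74 to 0.77). Nfkbiz, an atypical inhibitor of NF-kB, had 1.47 and 1.00. Of 30 genes of the T cell receptor complex and its proximal signalling, 3 were induced and 5 repressed (median difference -0.09), and 21 had intervals inside 2-fold.

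Treg signature genes gave 14 induced and 3 repressed of 31, with a median difference of -0.0046. Gpr83, which encodes a G protein-coupled receptor, had the largest response among them, from 4.96 and 2.49 to 62.4 and 101 FPKM in WT and from 9.50 and 5.55 to 132 and 141 in cKO. Its cKO levels lay above WT in both states and its responses were 4.14 and 4.05, with an interval of -1.20 to 1.03 that passes 2-fold on both sides. Nrn1 had the smallest p of the list (0.80 in WT, -0.30 in cKO, limma, unadjusted p = 0.0150). Among 27 effector Treg genes, 9 were induced and 2 repressed, with a median difference of 0.15. The co-stimulatory receptor Icos had responses of 0.86 and 1.71, and the galectin gene Lgals1 went from 127 and 78.3 to 63.1 and 43.8 FPKM in WT and from 116 and 88.8 to 139 and 104 in cKO. Of 24 naive and quiescent T cell genes, 11 were repressed and 0 induced, and the median difference was -0.13. Tcf7, which encodes TCF-1, fell from 244 and 216 to 87.7 and 71.0 FPKM in WT and from 214 and 260 to 60.02 and 80.4 in cKO (responses -1.53 and -1.75), and the egress receptor S1pr1 had -1.35 and -0.78.

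Of 31 tested cytokine genes, 11 were induced and 2 repressed, 4 (12.9%) had an interval inside 2-fold, and differences ran from -1.05 for Csf2 to 1.88 for Il17f. Il22, an epithelial repair cytokine, had the largest mean response of the named genes, from 0.541 and 0.822 to 196 and 129 FPKM in WT and from 1.81 and 0.735 to 504 and 215 in cKO. Stimulated cKO was above stimulated WT without overlap, and the responses of 6.58 and 7.22 differed by 0.65 ± 0.59 (SE). Its copy Iltifb, which had a weaker estimate in cKO, could share reads with it. The summed level of both was 217 and 138 FPKM in stimulated WT and 506 and 216 in stimulated cKO. The type 2 cytokine genes Il4 (2.11 and 1.41), Il5 (1.74 and 0.92) and Il13 (2.04 and 1.47) each had the smaller estimate in cKO, and Ifng had 0.98 and 1.01. None of these 4 had an unadjusted p under 0.05. Of 40 cytokine receptor and Jak-STAT genes, 11 were induced and 5 repressed, and 25 had intervals inside 2-fold. An unadjusted p under 0.05 was found for 3 of them, where all tested genes gave 380 of 10710. Those 3 were Socs3 (0.49 in WT, -0.19 in cKO), Stat5a (-0.17 and -0.77) and Ifnar2 (0.13 and -0.45).

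**Figure D5:**
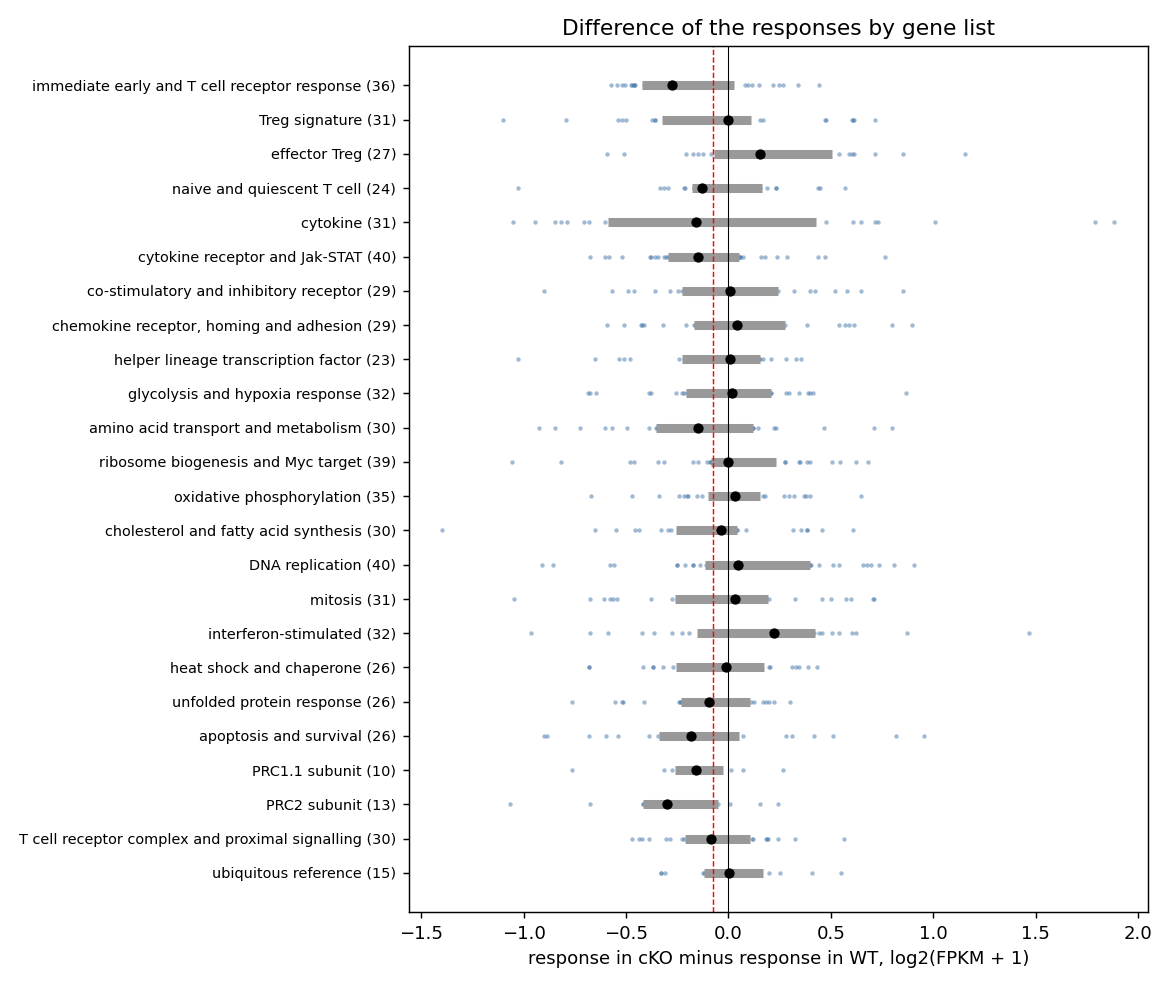
Difference of the responses (cKO minus WT, log2 scale) by gene list. Small points are genes, grey bars span the middle 50%, black points are medians, and the number of tested members is in brackets. The dashed line is the median of all tested genes (-0.08), and medians of the lists run from -0.30 for PRC2 subunits to 0.22 for interferon-stimulated genes.

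Among metabolic and growth lists, the share of intervals inside 2-fold ran from 3.23% for mitosis to 74.4% for ribosome biogenesis. Over all tested genes it was 41.9%. Of 39 ribosome biogenesis and Myc target genes, 22 were induced and 1 repressed, 29 (74.4%) had an interval inside 2-fold and the median difference was -0.0012. The nucleolar protein gene Nop16 was an exception, with responses of 1.05 and 0.23 (limma, unadjusted p under 0.05). Of 30 genes of amino acid transport and metabolism, 13 were induced and 1 repressed, as for the arginine transporter Slc7a1 (1.45 and 1.44) and the proline synthesis gene Aldh18a1 (1.91 and 1.77). Glycolysis and hypoxia genes gave 8 induced and 3 repressed of 32 (median difference 0.02), and oxidative phosphorylation genes 0 and 3 of 35 (0.03). DNA replication genes gave 0 induced and 3 repressed of 40 and mitosis genes 0 and 1 of 31, where all tested genes gave 5.42% and 7%. The median response of the mitosis genes was -0.35 in WT and -0.31 in cKO and that of the DNA replication genes -0.27 and -0.15, and 1 of the 31 mitosis genes had an interval inside 2-fold. Of 32 interferon-stimulated genes 12 were induced and 0 repressed, with a median difference of 0.22, and the guanylate-binding protein Gbp5 had 1.56 and 1.61. Heat shock genes (1 induced and 1 repressed of 26), unfolded protein response genes (3 and 1 of 26) and cholesterol and fatty acid synthesis genes (4 and 2 of 30) had medians of -0.01, -0.10 and -0.04. Of 29 co-stimulatory and inhibitory receptors 11 were induced and 3 repressed (median 0.0065), of 29 chemokine receptor and adhesion genes 3 and 6 (0.04), and of 23 helper lineage transcription factors 8 and 4 (0.0072).

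Among 26 apoptosis and survival genes, 5 were induced and 7 repressed, and 19 differences were below 0 (median -0.19), where 6260 of all 10710 tested genes were below 0. The pro-apoptotic gene Bax was at 74.6 and 64.2, then 60.8 and 45.5 FPKM in WT and at 48.7 and 76.6, then 27.4 and 22.2 in cKO. Only stimulated cKO stood apart, with responses of -0.39 and -1.27 (difference -0.89 ± 0.35 SE). Bad, also pro-apoptotic, had the opposite order (-2.04 and -1.08), with WT stimulated library 2 at 0.349 FPKM. Of 10 PRC1.1 subunits, 7 had intervals inside 2-fold and 1 was responsive, Kdm2b, whose response was -0.29 in WT and -0.45 in cKO (interval of the difference -0.58 to 0.27). The PRC1.1 scaffold Bcor was at 17.1 to 29.8 FPKM in WT and 50.4 to 64.9 in cKO, and its responses were 0.31 and 0.04. Of 13 PRC2 genes 2 were induced (Ezh2 and Jarid2) and 1 repressed (Phf1, -0.49 and -1.17), with 10 differences below 0 and a median of -0.30. Of 15 ubiquitous reference genes 0 were responsive and 12 had intervals inside 2-fold. With median-of-ratios scaling the medians of these lists were higher by about the shift of all genes, and those of the PRC2, apoptosis and immediate early genes were -0.20, -0.09 and -0.18.

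Other genes shared with Foxp3, Bcl2, Csf2, Gpr83 and Bcor levels of WT and cKO that did not overlap in either state. Their differences of response varied, and how many of all tested genes showed such levels was not counted. Il10, the suppressive cytokine, was at 43.5 and 55.4, then 35.4 and 33.4 FPKM in WT and at 8.93 and 8.14, then 13.1 and 7.59 in cKO, and its difference of responses was 0.71 (interval -0.10 to 1.52). The desaturase gene Scd1 was at 1.74 to 2.98 FPKM in WT and 15.1 to 18.6 in cKO, with responses of 0.15 and 0.18 (interval of the difference -0.76 to 0.82). Cxcr4, a homing receptor, was at 298 and 440, then 200 and 196 FPKM in WT and at 130 and 154, then 56.8 and 51.1 in cKO, and fell in both (-0.87 and -1.38). The B cell receptor chains Cd79a and Cd79b were at 8.90 to 17.4 FPKM in WT and 33.0 to 71.5 in cKO, and their differences of responses were -1.23 (interval -2.06 to -0.40) and -0.59 (-1.13 to -0.04), neither of which passed after adjustment. Of 16 tested B cell markers 0 were responsive, and their median difference was -0.19. An unadjusted p under 0.05 was found for 3 (the third, Pax5, at 1.41), where all tested genes gave 380 of 10710. In bulk libraries, fewer cells of a type and less RNA per cell cannot be told apart, and the part of other cells in these values was not tested.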

How the data were processed

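Polyadenylated RNA was sequenced, per the labels' protocols (oligo-dT beads). The authors deposited a table of FPKM per gene symbol, and per the submitters' processing notes HISAT2 2.2.1 and StringTie 2.1.1 were used, with the builds mm10 and hg19 named without a role. FPKM are not counts and depth is unknown, so no count model or counting interval was used, and 4 columns matching no sample were left out. Columns were matched to samples by title. Of 24421 symbols, 23204 were RefSeq symbols and 1108 matched a synonym. FPKM plus a pseudocount of 1, on the log2 scale, were fitted with limma 3.58.1 in R 4.3.3 (1 mean for each of 4 groups, eBayes with trend, two-sided, 4 residual and 7.87 moderated degrees of freedom) on genes averaging 1 FPKM or more over the 8 libraries, with Benjamini-Hochberg adjustment over all of them. The fit was tested on simulated data.

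Named genes were those with the 10 smallest p in each direction, the 8 responsive genes with the most negative and the 8 with the most positive sign-turned value, the 8 largest responses with an interval inside 2-fold, members with the largest response or smallest p of each of 24 lists, and Kdm2b, Foxp3, Il2ra, Il10 and Bcor. Those with a mean under 5 FPKM in every group and predicted or clone names were not taken. Genes outside the rule (such as Mt1, Lilr4b as a copy, Il4, Il5, Il13, Icos, Scd1, Cd79a, Rpl26, H2-Eb1 and the small nucleolar RNA, Clk and Srsf genes) were chosen after their values were seen. The members and lists were chosen with earlier results of these data known. RefSeq promoter windows matched 8548 of 10710 tested genes (79.8%), too few for a comparison of classes, which was not made. Alternatives were other pseudocounts, filters, scalings, replicate blocks, eBayes forms and left-out libraries.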

Additional observations from a re-analysis of the deposited data

How the results depend on the processing

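The interaction called 0 genes with another pseudocount, filter, scaling, eBayes form, GC correction or replicate block, and in the leave-one-out fits 0 to 3 genes, namely Rpl26 without WT unstimulated library 2, Mir2861 and Txndc15 without WT stimulated library 1, and Rps2, Rps18 and H2-Eb1 without WT stimulated library 2. It called 5 with both number 2 libraries of WT left out (Rpl26, Atp6v0c-ps2, Rps2, Rps18 and H2-Eb1). A group left with 1 library is assumed to vary like the others. The 1330 responsive genes became 780 with no filter, 2072 with a replicate block within each genotype, 2167 with both number 2 libraries of WT left out, 128 with both number 1 libraries of cKO left out, and 453 to 2260 in leave-one-out fits. The replicate block over all groups gave 0 interaction calls and 1412 responsive genes. Differences of number 2 minus number 1 correlated at 0.239 between the WT groups and 0.420 between the cKO groups, and at -0.138 to 0.0577 across genotypes, so same-numbered libraries deviated together within a genotype and not across genotypes, and no label says what the numbers share. With the replicate block within each genotype the smallest adjusted p of the interaction was 0.28. Of its 2072 responsive genes, 46 were weaker and 43 stronger by 1 or more, and 1211 (58.4%) had intervals inside 2-fold. Without a block there were 22, 17 and 733 (55.1%) of 1330. The median difference of induced genes, -0.01, was 0.0826 with median-of-ratios scaling, 0.11 with quantile normalization, 0.0635 with GC correction, -0.10 with both number 2 libraries of WT left out, and -0.19 to 0.0890 in leave-one-out fits. That of repressed genes, 0.12, was 0.0304 with median-of-ratios scaling, 0.0187 with GC correction, 0.0501 and 0.35 without the same pairs of WT and cKO libraries, and -0.28 to 0.29 in leave-one-out fits. The cause of these shifts was not tested. Responsive genes were 721 induced and 400 repressed after rescaling to a common sum and 762 and 466 without haemoglobin genes. The within-genotype block and GC correction, and the left-out pairs of libraries, were chosen after seeing the data. No gene taken by the naming rule with an unadjusted p under 0.05 changed sign under any setting run. The signs of genes named outside the rule, such as Cd79a, Cd79b, Rpl26 and Snord87, were not followed. With 2 libraries a group, differences under about 2-fold could not be resolved for most genes of 1 to 5 FPKM.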

Other observations

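Small nucleolar RNA genes, which guide chemical modification of ribosomal RNA and mostly lie in introns of host genes, were noticed after their values were seen. Of 74 tested, 51 had a difference of responses below 0 and 16 an unadjusted p under 0.05 in limma, where all tested genes gave 6260 and 380 of 10710. Many of them were listed at 0 in a number 2 library of WT. Snord87, for example, was at 2.56 and 0 FPKM in unstimulated WT, and Snora16a at 9.44 and 0 in stimulated WT (differences -2.14 and 0.71). The median response of the 74 genes was 0.25 in WT and -0.44 in cKO. Their median difference of -0.68 ranged from -0.85 to -0.61 over the scalings and from -1.04 to -0.47 over the leave-one-out fits. Snord55, listed above 0 in every library, was at 16.9 and 16.7, then 15.8 and 23.9 FPKM in WT and at 12.1 and 19.3, then 3.29 and 4.61 in cKO. Transcripts this short are counted with little certainty in FPKM of polyadenylated RNA, and the part of library preparation in these values was not tested.

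The splicing kinases Clk1 to Clk4 and the SR splicing factors (Srsf genes) were likewise noticed after Clk2 appeared among the smallest p. All 14 tested had a difference below 0, where 6260 of all 10710 tested genes were below 0. Of the 14, 5 had an unadjusted p under 0.05, where all tested genes gave 380. The median difference was -0.57, and it ran from -0.57 to -0.46 over the scalings and from -0.69 to -0.36 over the leave-one-out fits. Clk4 was at 36.5 and 43.5, then 38.3 and 37.9 FPKM in WT and at 37.6 and 41.1, then 18.7 and 23.3 in cKO, so stimulated cKO alone was low. None of these genes passed the test after adjustment over all genes.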
